A study of Mus musculus with 2 samples.

Results

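Collagen-high cells were the Ptprc-negative, non-cycling cells of MB49 tumours in which the type I collagen gene Col1a1 made up at least 0.75% of all unique molecular identifiers (UMIs, single mRNA molecules counted once). MB49 is a mouse bladder cancer line of male origin. The rule asked for 200 detected genes or more, a mitochondrial UMI share of 20% or less and no UMI of Ptprc (the gene of CD45). It also asked for at least 10 UMIs of Krt8, Krt18 and Col1a1 together. At most 1 UMI of Cd3e, Cd3g and Cd3d together, and at most 1 UMI of C1qa, C1qb and C1qc together, were allowed. The summed UMIs of 7 cell cycle genes had to be fewer than 5. The rule chose 726 of 15762 barcodes, 335 in the library labelled Lcn2-ko and 391 in the library labelled wt. The measured values of Col1a1, the keratins, Ptprc, the Cd3 and C1q genes and the cycle genes chose these cells. Their levels of those genes are therefore given as description.

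Both groups were live CD45+ sorted cells of MB49 tumours, digested for 45 min at 37 °C, with 1 BD Rhapsody (microwell capture) library each. The Lcn2-ko group came from lethally irradiated female mice given male Lcn2-KO bone marrow, and the wt group from such mice given male WT marrow. Lcn2, an iron-siderophore-binding lipocalin, was therefore deleted in marrow-derived cells only, and both the host tissue and the tumour line carry the gene. Stromal cells of the host survive irradiation and are female. The series asked how Lcn2 bears on tumour neutrophils. Cells without Ptprc UMIs stand outside that question and outside the labelled cell type. With 1 library per label nothing was tested, library and genotype cannot be told apart, and each 95% interval below covers counting error only.

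Fibrillar collagens are triple helices built from procollagen chains, and type I collagen is usually a trimer of Col1a1 and Col1a2 chains. Type VI collagen forms beaded filaments around cells from chains of Col6a1, Col6a2 and Col6a3, and Sparc is a collagen-binding matricellular protein that assists fibril assembly. In tumours, fibroblasts are the usual main source of fibrillar collagen. Keratins 8 and 18 are paired filament proteins of simple epithelia and of carcinoma cells.

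The libraries held 7788 barcodes (Lcn2-ko) and 7974 barcodes (wt) with 40959725 and 42069099 UMIs, at a median of 3570 and 3574.5 UMIs per barcode. Of the kept cells, 2289 of 7547 (Lcn2-ko) and 2479 of 7712 (wt) had no Ptprc UMI. The marker, Cd3 and C1q limits left 1120 and 1322, of which 759 and 855 were non-cycling. Collagen-high cells had a median of 7130 UMIs in the Lcn2-ko library and 6764 in the wt library, against 7655.5 and 7278 in collagen-low non-cycling cells (424 and 464 cells). Cycling Ptprc-negative cells (361 and 467 cells) had medians of 13012 and 13084 UMIs. The libraries shared 4 barcodes, none of them among the collagen-high cells, and a doublet score marked 2 and 1 of the collagen-high cells. Levels below are UMIs summed over the cells of a population and scaled to 1e+06 (CPM). As each UMI is read near the transcript's 3' end, CPM is not divided by gene length.

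The Col1a1 share was a continuous range with no gap at its limit. Its median was 1.11% in Lcn2-ko members (0.753 to 5.55%) and 1.15% in wt members (0.7505 to 5.25%), and the median cell held 79 and 78 Col1a1 UMIs. Within 0.05 points of the limit, 29 Lcn2-ko cells and 40 wt cells lay just inside it, and 20 and 34 just outside. Between shares of 0.5 and 1% lay 283 of the 759 and 336 of the 855 non-cycling cells. Collagen-high cells are therefore the upper part of a range, not a separate type. They made up 44.1% of non-cycling Ptprc-negative cells in the Lcn2-ko library (Clopper-Pearson interval 40.6 to 47.8%) and 45.7% in the wt library (42.4 to 49.1%). The difference of -1.59 points had a Newcombe interval of -6.44 to 3.26. Of all kept cells they were 4.44% in the Lcn2-ko library and 5.07% in the wt library, a difference of -0.631 points (-1.31 to 0.0449). The CD45 sort can set these shares.

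**Figure D1:**
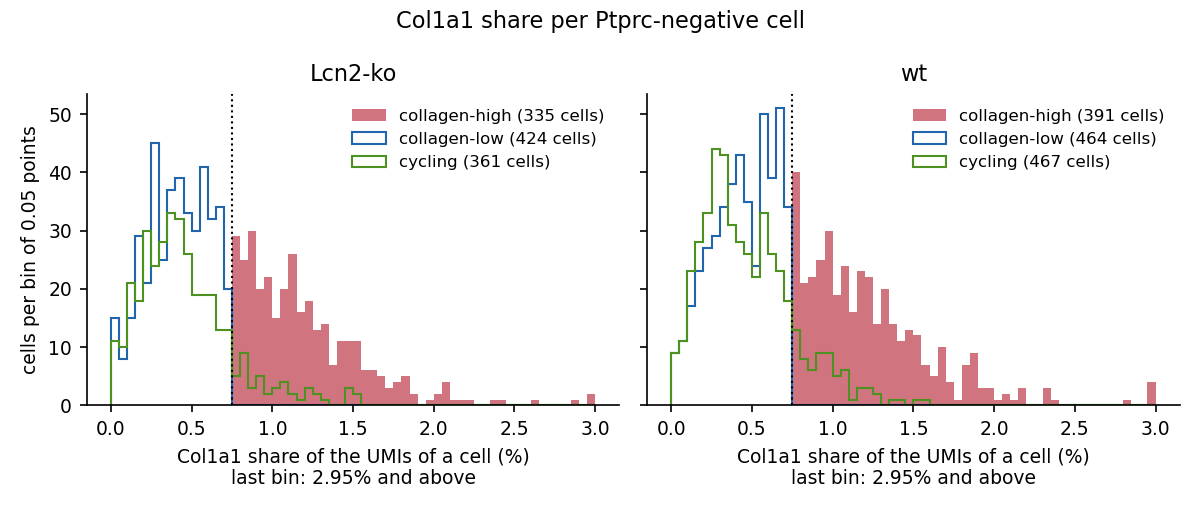
Number of Ptprc-negative cells (y axis) by the Col1a1 share of their UMIs in percent (x axis, bins of 0.05 points, with all higher shares in the last bin), for collagen-high, collagen-low and cycling cells in the Lcn2-ko library (left) and the wt library (right). The dotted line is the limit of 0.75%; the counts run on across it, with 29 and 40 cells just inside and 20 and 34 just outside.

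Col1a1 (ENSMUSG00000001506; mm10 chromosome 11, 94936224 to 94953042, plus strand) was the most abundant gene outside the mitochondrial genes in both libraries. Its level was 11886 CPM in Lcn2-ko collagen-high cells and 12023 CPM in wt collagen-high cells, against 4052 and 4353 CPM in collagen-low cells and 4158 and 4443 CPM in cycling cells. Col3a1 (chromosome 1, 45311538 to 45349706, plus strand), the single chain of type III collagen, stood at 1193 CPM (Lcn2-ko) and 1163 CPM (wt), against 560 and 608 CPM in collagen-low cells. A Col3a1 UMI was seen in 305 of 335 Lcn2-ko members and 355 of 391 wt members. Col6a1 (chromosome 10, 76708792 to 76726168, minus strand) reached 4476 and 4038 CPM in collagen-high cells, against 2369 and 2111 CPM in collagen-low cells. Col6a2, its neighbour on the same strand (76595762 to 76623630), reached 3029 and 2717 CPM against 1478 and 1361. Sparc (chromosome 11, 55394500 to 55423183, minus strand) reached 3023 and 2995 CPM against 1658 and 1748. All 5 marker genes of the label were thus higher in collagen-high than in collagen-low cells in each library, as the cut on Col1a1 fixes for that gene. The others are the label's own markers, chosen with earlier results of these data known, so their levels are description too.

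The same genes gave some UMIs in cells that should lack them. In T cells, defined by a Ptprc UMI and at least 3 UMIs of Cd3e, Cd3g and Cd3d (2858 and 2568 cells, median 3056 and 2968.5 UMIs), Col1a1 stood at 411 CPM in the Lcn2-ko library and 301 CPM in the wt library. A Col1a1 UMI was present in 22.8% and 19.7% of these T cells, against every collagen-high cell by the rule. Col6a1 was seen in 14.9% and 11.2% of T cells, against 99.1% of Lcn2-ko members and 99.5% of wt members. Thinned to 2000 UMIs per cell, Col6a1 was seen in 9.16% and 7.30% of T cells and in 99.1% and 98.9% of members, leaving out 12 and 22 shallower members.

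The partner chain of Col1a1 divided the members into very unequal sets. Col1a2 (chromosome 6, 4504814 to 4541544, plus strand) gave 661 UMIs in 8 cells, 4 of each library, and 3 UMIs in the other 718 members. Those 8 cells formed a cluster of their own at each of the clustering settings tried, led by Col1a2, Col5a2, Saa3, Serping1 and Col14a1. They held 1698 Col1a1 UMIs, 544 of Col3a1, 122 of Col5a2, 109 of Postn (periostin, a matricellular protein of fibroblasts), 87 of Dcn, 51 of Cxcl12 and 21 of Lum. Krt8 gave 1 UMI in them and Krt18 none. Xist, which coats the silenced X in female cells, was present in 7 of the 8 with 34 UMIs, and 4 genes of the Y chromosome, Kdm5d and Uty among them, gave 0 UMIs. These 8 cells go against the label of tumour cells, and 8 cells are 1.19% of Lcn2-ko and 1.02% of wt members.

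The other 718 members held 61880 Col1a1 UMIs with the 3 of Col1a2, and 1 UMI of Col5a2, 1 of Lum and none of Postn, Cxcl12 or Pdgfrb. They held 1529 Krt8 and 3191 Krt18 UMIs. Among all members, the 8 cells included, a keratin 8 or 18 UMI was present in 309 of 335 Lcn2-ko members (92.2%, 88.8 to 94.9%) and 351 of 391 wt members (89.8%, 86.3 to 92.6%). Krt18, counted without Krt8, was seen in 7.91% and 5.92% of T cells. These had lower median depths, 3056 and 2968.5 UMIs against 7130 and 6764 in members. Krt8 (chromosome 15, 101996698 to 102004482, minus strand) stood at 281 CPM in Lcn2-ko and 294 CPM in wt members, and Krt18 (102028180 to 102032027, plus strand) at 631 and 573 CPM. Members without a keratin UMI numbered 26 and 40, and their median depths of 5049 and 3420 UMIs were below those of all members. A Y-linked UMI was found in 37.6% of Lcn2-ko members and 35.0% of wt members, and in 42.3% and 46.0% of T cells. Thinned to 2000 UMIs, these shares were 18.6% and 16.0% of members and 29.0% and 32.9% of T cells. The donor marrow is male like the tumour line, so a Y-linked UMI does not tell tumour cells from donor cells. An Xist UMI was found in 4.48% (2.53 to 7.28%) of Lcn2-ko and 2.30% (1.06 to 4.32%) of wt members. Neither was found in 59.7% and 62.7% of members, which these genes do not place. Xist was seen in 17.98% and 14.2% of T cells, which in these chimeras can be of donor or host origin. Without the 8 cells, Xist was seen in 3.32% and 1.55% of members.

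The label was then read against whole marker lists. Of 20 epithelial and urothelial genes, 5 reached 20 CPM in Lcn2-ko members and 4 in wt members; Krt14 was seen in 52 of 335 and 59 of 391 members, Epcam in 1 and 2, and 7 genes were at 0, among them Krt5, Upk1b, Upk2 and Upk3a. Vim, the mesenchymal filament protein, stood at 3669 and 3435 CPM. Of 16 fibroblast markers 5 and 3 reached 20 CPM, with sums of 595 and 446 CPM (459 and 418 CPM without the 8 cells). Dcn (decorin, a collagen-binding proteoglycan) and Pdgfra (a platelet-derived growth factor receptor) came also from the other members, with 1358 and 356 UMIs outside the 8 cells. Endothelial markers summed to 8.08 CPM (Lcn2-ko) and 6.34 CPM (wt), with 0 of 10 at 20 CPM and 5 at 0 in each library, Kdr, Tie1, Emcn and Cldn5 in both. Of 8 pericyte markers 1, Notch3, reached 20 CPM (64.6 and 65.5 CPM), and 5 and 6 were at 0, Cspg4 and Des in both. T cell markers summed to 109 and 77.4 CPM in members against 6179 and 5920 CPM in T cells. Macrophage markers summed to 90.1 and 79.5 CPM against 11091 and 10190 CPM in cells with at least 5 UMIs of C1qa, C1qb and C1qc. These lists include the Cd3 and C1q genes that chose both the members and the comparison cells. Both contrasts are thus partly fixed by selection and are description. The neutrophil list summed to 596 and 647 CPM, of which 545 and 595 CPM were Mmp9, a gelatinase that was present at 359 and 428 CPM in collagen-low cells too.

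**Figure D2:**
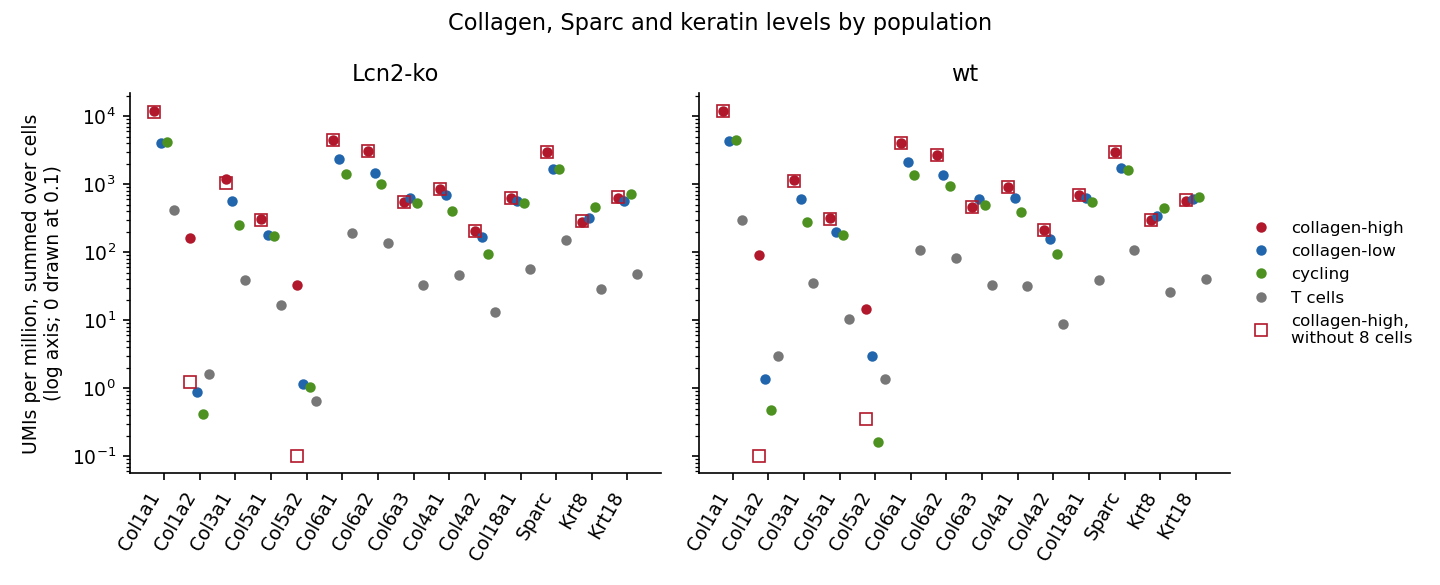
Levels of collagen genes, Sparc, Krt8 and Krt18 in CPM on a log axis (0 drawn at 0.1), one point per population, in the Lcn2-ko library (left) and the wt library (right); hollow squares are collagen-high cells without the 8 Col1a2-positive cells. Collagen-high cells lie above collagen-low cells for Col1a1, Col3a1, Col6a1, Col6a2 and Sparc, while Col1a2 and Col5a2 fall to the level of the other populations without the 8 cells.

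Set against collagen-low non-cycling cells, collagen-high cells differed in few genes. The cut on Col1a1 made this contrast, so it describes both sides of a range and supports no type. Among 1767 genes with at least 100 CPM in a population of each library, 5 were at least 2-fold higher in both libraries (0.283%) and 8 were at least 2-fold lower (0.453%), and the counts were the same without the 8 cells. The 5 were Col1a1 (log2 ratio 1.55 in the Lcn2-ko library and 1.47 in the wt library), Olfml2b (1.1998 and 1.09), an olfactomedin-domain matrix protein, Pdgfrl (1.06 and 1.21), Map1lc3a (1.02 and 1.07), an autophagosome protein, and Tgfb3 (1.17 and 1.02), a TGF-beta ligand. Olfml2b stood at 506 and 496 CPM in collagen-high cells, against 220 and 233 CPM in collagen-low cells. The 8 lower genes were Fgb, the fibrinogen beta chain (-7.73 and -7.28), Ereg, an EGF receptor ligand (-1.38 and -1.40), Esd (-1.47 and -1.17), Inhba, the activin A subunit (-1.11 and -1.25), Hilpda, a lipid droplet protein induced by low oxygen (-1.10 and -1.33), Ero1l, an oxidase of the endoplasmic reticulum (-1.10 and -1.36), Slc2a1, the glucose transporter GLUT1 (-1.06 and -1.10), and Dusp4, a MAP kinase phosphatase (-1.05 and -1.10). Fgb gave 2 and 5 UMIs in collagen-high cells, against 588 and 1004 UMIs in collagen-low cells. With the Col1a1 limit at 0.5%, the mean of its log2 ratios over both libraries was -3.91. Ero1l stood at 821 and 663 CPM in collagen-high cells, against 1761 and 1706 CPM in collagen-low cells.

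**Figure D3:**
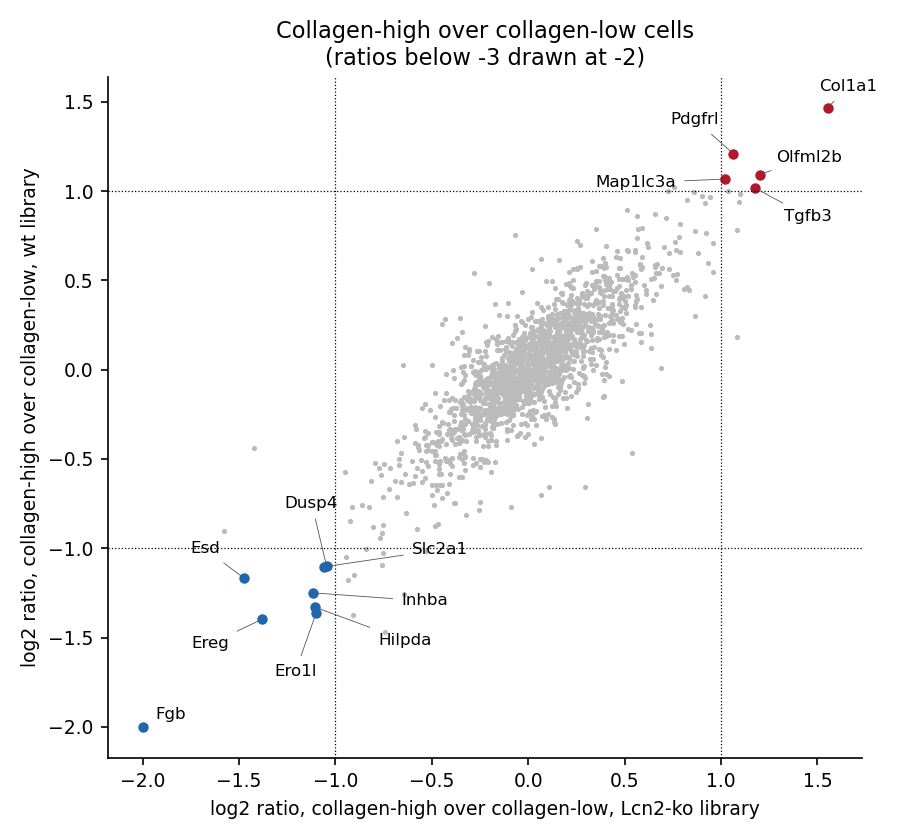
Log2 ratio of collagen-high over collagen-low cells in the Lcn2-ko library (x axis) and in the wt library (y axis), 1 point per gene for the 1767 genes counted; dotted lines mark 2-fold, and Fgb, at -7.73 and -7.28, is drawn at -2. Red points are the 5 genes at least 2-fold higher in both libraries and blue points the 8 at least 2-fold lower.

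Not all collagens followed Col1a1. At a limit of 1.5-fold in both libraries, over 6940 genes with at least 20 CPM, 2.13% of genes were higher and 1.96% lower, and the median log2 ratio over all of them was 0.029 in the Lcn2-ko library and 0.050 in the wt library. Of 7 measured fibrillar collagen genes 5 were higher, with a median of 1.01 over both libraries. Without the 8 cells 3 were, Col1a1, Col3a1 and Col5a1, a minor fibril chain (0.72 and 0.64). Col5a3 went the other way, at 185 and 134 CPM against 267 and 271 CPM in collagen-low cells (log2 -0.53 and -1.01). Of 6 basement membrane and network collagens none passed the limit, with a median of 0.38; Col4a1 stood at 836 and 917 CPM against 693 and 616 CPM. Of 6 beaded filament and fibril-associated collagens 2 passed, Col6a1 and Col6a2. The third chain, Col6a3, was at 548 and 465 CPM against 627 and 601 CPM (log2 -0.20 and -0.37).

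Collagen processing and other matrix genes went both ways. Among 20 measured folding and crosslinking enzymes 2 were higher, Lox, a crosslinking oxidase, and P4ha3, a prolyl 4-hydroxylase subunit (0.62 and 0.71), with a median of 0.37. The Lox ratios of 1.39 and 1.75 rested on the 8 cells and were -0.68 and 0.62 without them. Serpinh1, the collagen chaperone HSP47, was at 445 and 452 CPM in collagen-high cells, against 382 and 385 CPM in collagen-low cells. P4ha1, another prolyl 4-hydroxylase subunit, ran lower at -0.52 and -0.54. Fibronectin did not follow collagen, at 3057 and 3200 CPM of Fn1 against 3260 and 2995 CPM, and osteopontin, the product of Spp1, was lower at 1291 and 1213 CPM against 1951 and 1883 CPM (log2 -0.60 and -0.63). Among matrix proteases and inhibitors Mmp11 was higher (0.70 and 0.93), and the collagenase Mmp13 (-1.38 and -1.36) and the inhibitor Timp1 (-0.74 and -1.47) were lower. Of 10 matrix receptors Itgb5, the integrin beta 5 chain, was higher (0.83 and 0.95) and Itga6 was lower. Of 18 genes of the TGF-beta family Tgfb3 and its receptor Tgfbr2 (0.67 and 0.59) were higher and Inhba was lower, with a median of 0.27.

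Part of the hypoxia, iron and interferon genes stood lower in collagen-high cells. All 20 hypoxia and glycolysis genes were measured, 0 were higher and 8 lower at 1.5-fold, and the median was -0.54. Gapdh, a glycolytic enzyme, stood at 2729 and 2527 CPM in collagen-high cells, against 4001 and 3907 CPM in collagen-low cells, and Pgk1 was at -0.76 and -0.92. Vegfa, the angiogenic growth factor, was at -0.53 and -0.42. Of 12 measured glutathione, Nrf2 and iron genes 6 were lower and none higher, with a median of -0.76. Heme oxygenase Hmox1 was at 148 and 168 CPM against 441 and 314 CPM, and the ferritin heavy chain Fth1 at 4242 and 3481 CPM against 7535 and 5924 CPM. Lcn2 (chromosome 2, 32384633 to 32388252, minus strand) belongs to this list, at 29.9 and 20.1 CPM against 54.4 and 32.6 CPM. Of 22 interferon response genes 5 were lower, Isg15, Ifit1, Ifit3, Irf7 and Oas1a, with a median of -0.21. Residual cell cycle genes outside the rule ran lower as well, 3 of 13 with a median of -0.42, and their part in the other differences was not tested.

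Of the immediate-early, heat shock and MHC genes none was 1.5-fold higher in collagen-high cells in both libraries. Fos stood at 7197 and 7300.5 CPM in collagen-high cells, against 5197 and 4914 CPM in collagen-low cells, and Zfp36, which encodes an mRNA-destabilising protein, at log2 0.66 and 0.58. Of the 16 immediate-early and heat shock genes 1 was lower, Ier3. The 6 measured MHC class II genes had a median of 0.30 and the 14 class I genes a median of 0.22.

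Cycling Ptprc-negative cells were the other close population. Among 1973 genes 87 were at least 2-fold higher in collagen-high cells in both libraries (4.41%) and 141 at least 2-fold lower (7.15%), against 86 and 140 without the 8 cells. The lower side was led by Fgb, Cdc20, Hmmr, Ccna2, Nek2 and Aurkb, of which Cdc20 and Hmmr were in the rule. The higher side was led by Abca1, a cholesterol exporter (2.98 and 2.61), Col15a1 (2.84 and 2.38), Mxd4, a MYC antagonist (2.24 and 2.32), complement C3 (2.23 and 2.30), Col3a1 (2.27 and 2.07) and the cadherin Cdh15 (1.77 and 1.998). C3 stood at 977 and 717 CPM in collagen-high cells, against 208 and 146 CPM in cycling cells and 802 and 681 CPM in collagen-low cells. Of these 6 genes Col3a1 and Mxd4 (0.79 and 0.81) differed from collagen-low cells by over 1.5-fold in both libraries, and the other 4 did not. At 1.5-fold, over 7326 genes with at least 20 CPM, 12.2% were higher and 14.8% lower. Of 7 fibrillar collagen genes 6 were higher by this limit, with a median of 1.68. The 7 include Col1a1, on which the rule cut, and Col1a2 and Col5a2, with only 3 and 1 UMIs in members outside the 8 cells. Of 17 genes of the TGF-beta family 11 were higher, with a median of 0.77. Fn1 was at 1.34 and 1.41.

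Part of these genes also varied with the Col1a1 share within the collagen-high cells. This split reuses the share that the rule cut on, so it is description and no independent support. The 718 members without the 8 cells were split into quartiles by that share within each library, from medians of 8239 and 6921 UMIs per cell in the lowest quartile to 6252 and 6627 in the highest. Of 1766 genes 14 were at least 1.5-fold higher in the highest than in the lowest quartile in both libraries (0.793%) and 41 lower (2.32%). Col3a1 stood at 1422 CPM in the highest Lcn2-ko quartile, against 753 CPM in the lowest, and at 1555 against 848 CPM in wt. Olfml2b (log2 0.70 and 0.74), Map1lc3a (0.87 and 0.80) and Pdgfrl (1.10 and 0.86) followed. On the lower side were Ero1l (-0.99 and -1.66), Inhba (-0.98 and -1.003), Pgk1 (-0.66 and -1.09), Sdc4, a syndecan (-1.16 and -1.25), and Cxcl10, an interferon-induced chemokine (-1.16 and -1.05). Tgfb3 (0.48 and 0.46), Esd (-0.63 and -0.42) and Slc2a1 (-0.18 and -0.93) did not pass 1.5-fold in both libraries. Of the 14 hypoxia and glycolysis genes counted here 2 were lower and none higher, and their median was -0.53, against 0.022 over all genes. Ero1l in the Lcn2-ko library ran 813, 1263, 803 and 410 CPM from the lowest to the highest quartile, and in wt 890, 676, 766 and 281 CPM, so its drop lay mainly in the last quartile.

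**Figure D4:**
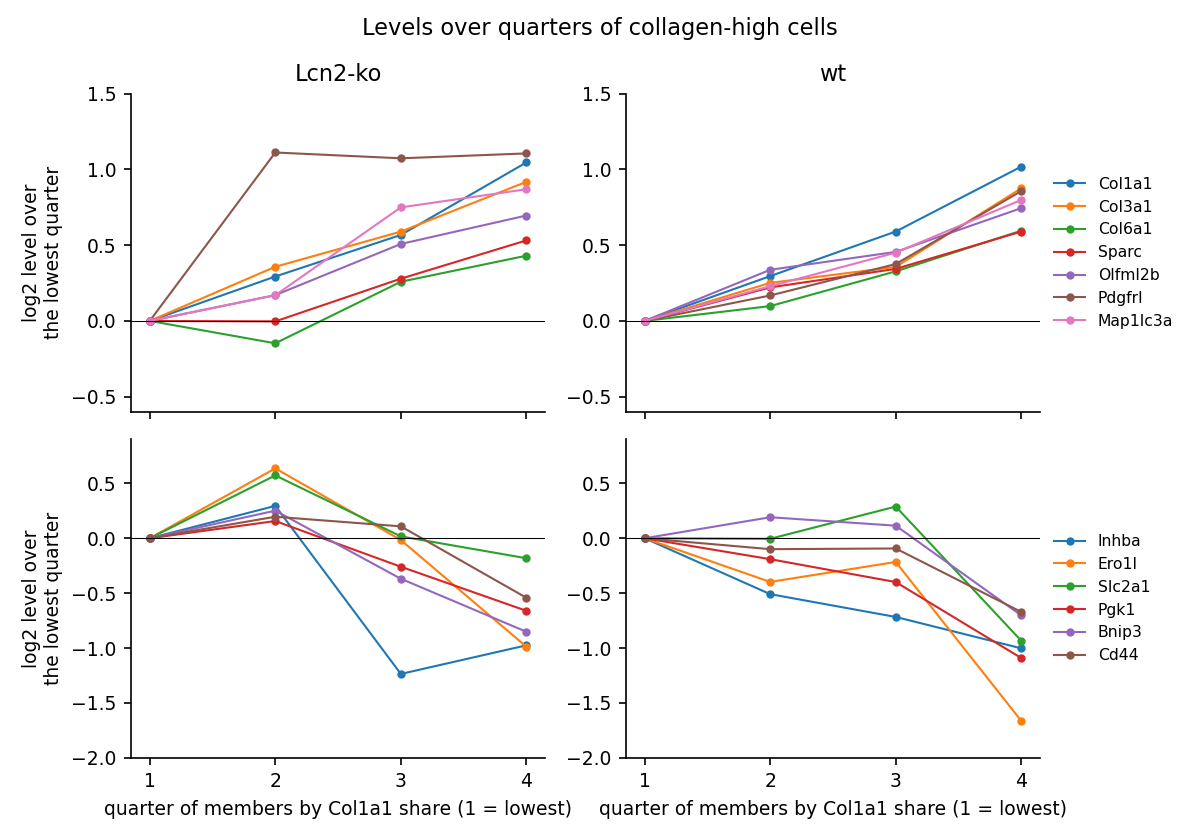
Log2 level relative to the lowest quartile (y axis) over quartiles of collagen-high cells by Col1a1 share (x axis), without the 8 Col1a2-positive cells, for genes higher (top) and lower (bottom) in the highest quartile, in the Lcn2-ko library (left) and the wt library (right). Col3a1 ends at 0.92 and 0.87 and Ero1l at -0.99 and -1.66.

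Clustering divided the members into 6 sub-clusters, described by their leading genes. The first, 273 cells, was led by Inhba (961 CPM against 111 CPM in other members), Sprr1a, Srxn1, Sgms2 and Nos2, the inducible nitric oxide synthase. The second, 163 cells, was led by the heat shock genes Hspa1b (1047 against 115 CPM), Hspb1 and Hsph1 with Txnip and Serpina6. It held the highest levels of H2-Aa, at 1511 CPM in its Lcn2-ko cells and 1023 CPM in its wt cells. The others were led by Limd2 and Eno3 (117 cells), by Rflnb, Ogn and Snai1 (108 cells), by Col15a1 and Elk1 (57 cells) and by Col1a2 (the 8 cells). Ero1l stood at 1230 and 1191 CPM in the first sub-cluster and at 194 and 199 CPM in the second. In the one led by Limd2 and Eno3 it stood at 1168 CPM (Lcn2-ko) and 637 CPM (wt). Clustered without 257 genes, those that differed 1.5-fold between the libraries among them, the cluster led by Inhba held 151 of 335 Lcn2-ko members (45.1%) and 133 of 391 wt members (34.0%). That difference was 11.1 points (Newcombe interval 3.93 to 18.1), and the cluster led by Txnip and Hspa1b differed by -12.6 points (-19.6 to -5.51). With all genes kept, the sub-cluster that Inhba led differed by 14.4 points at a resolution of 0.5, and at a resolution of 1.0 the one with Inhba among its leading genes differed by -4.05 points.

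The comparison of Lcn2-ko with wt members does not use the rule's contrast. MHC class II genes, which present peptides to CD4 T cells, and the chemokine Cxcl9 were higher in Lcn2-ko members, and the heat shock genes Hspa1b and Hsph1 were lower, while the 5 collagen-high marker genes differed by at most 0.16 on the log2 scale. Of 3557 genes that reached 50 CPM in 1 of the libraries and 50 UMIs in all, 2 were at least 2-fold higher in Lcn2-ko members (0.0562%) and 4 at least 2-fold lower (0.112%). Without the 8 cells 0 were higher and 3 lower. At 1.5-fold, over 6677 genes with at least 20 CPM, 1.18% were higher and 2.67% lower, around a median log2 ratio of -0.043.

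The 2 genes past 2-fold on the higher side were seen in few cells. Il6, the interleukin-6 cytokine, stood at 84.8 CPM in Lcn2-ko members, in 38 of 335 cells, and at 41.9 CPM in wt members, in 32 of 391 cells (log2 1.02, interval 0.69 to 1.36; 0.96 without the 8 cells). With the Col1a1 limit at 0.5% its ratio was 0.43. Tnfaip6, a hyaluronan-binding protein, stood at 77.6 and 37.0 CPM, but 142 of its 192 Lcn2-ko UMIs lay in 1 of the 8 cells, and its ratio of 1.07 became -0.81 without them. Col1a2 (0.83) also rested on those cells.

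Of 6 measured MHC class II genes 5 were at least 1.5-fold higher in Lcn2-ko members, with a median of 0.73. H2-Aa, the alpha chain of the I-A molecule, was present in 281 of 335 Lcn2-ko members at 882 CPM, against 264 of 391 wt members at 521 CPM (log2 0.76, 0.66 to 0.86). Cd74, the invariant chain, stood at 843 and 502 CPM (0.75, 0.65 to 0.85), and H2-Eb1 at 690 and 420 CPM (0.72, 0.61 to 0.83). Over all alternatives the ratio of H2-Aa lay between 0.64 and 0.80 and that of Cd74 between 0.58 and 0.78. H2-Aa was higher in the Lcn2-ko cells of each of the 6 sub-clusters, from 927 against 517 CPM in the one led by Inhba to 337 against 201 CPM in the 8 cells. The values of the 8 cells rested on only 8 and 3 UMIs. All sub-clusters come from the same libraries and are not replicates. Collagen-low cells gave 631 CPM of H2-Aa in the Lcn2-ko library and 430 CPM in wt, and cycling cells 570 and 338 CPM, the same direction as in collagen-high cells. T cells of the same libraries, in which H2-Aa UMIs can be free RNA, gave 523 and 539 CPM, 2.01 and 1.97 UMIs per cell, against 6.52 and 3.79 UMIs per collagen-high cell. The part of free RNA in the members' level was not tested beyond these values. The 14 class I genes ran in the same direction with a median of 0.15 and none past 1.5-fold, H2-K1 at 5249.6 and 4236 CPM among them.

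Some chemokines and interferon genes were higher in Lcn2-ko members too. Of 16 measured chemokines and cytokines 4 passed 1.5-fold and none was lower by as much, with a median of 0.33. Cxcl9, a ligand of CXCR3 on T cells, stood at 380 CPM in 118 of 335 Lcn2-ko members and at 191 CPM in 97 of 391 wt members (log2 0.99, 0.84 to 1.15). Cxcl1, a neutrophil attractant, stood at 1351 and 894 CPM (0.60, 0.52 to 0.67), and Ccl5 at 160 and 102 CPM (0.64, 0.42 to 0.87). T cell markers were low but higher in Lcn2-ko members, where their list summed to 109 CPM, against 77.4 CPM in wt. Lck, a T cell kinase, stood at 11.7 and 4.22 CPM. Nkg7, a granule protein of T and NK cells, was at 11.3 and 3.17 CPM. It was picked from 10 dendritic, NK and B cell markers, none of which reached 20 CPM. That list summed to 23.4 CPM in Lcn2-ko and 14.4 CPM in wt members, with medians of 1.01 and 1.06 CPM. Its other genes went both ways. Without the Col1a2-positive cells, Xcr1 was at log2 0.40 and Clec9a at 0.53, but Flt3 at -0.31 and Cd79a at -1.38. Macrophage markers were low too and went both ways, with list sums of 90.1 and 79.5 CPM. Csf1r, a macrophage receptor, was at 9.70 and 4.58 CPM, while C1qa was seen in wt members only. Leaving out the Col1a2-positive cells, Lyz2 was at 26.5 and 25.5 CPM and Cd68 at 12.2 and 12.4 CPM. Ccl5 is itself abundant in T cells, at 1105 and 1170.4 CPM. Among the 168 Lcn2-ko and 196 wt members with the lower immune marker shares, H2-Aa was at 0.74, Cd74 at 0.76 and Cxcl9 at 0.93. That selection was added after the data were seen and rests on markers of low level. The part of immune cell RNA in these ratios was not tested. Of 21 interferon response genes Gbp2 (0.66), Gbp5 (0.64) and Igtp (0.68), which encode interferon-induced GTPases, were higher and Isg15 (-0.83) was lower, with a median of 0.26. Ubd, a ubiquitin-like modifier, was at 83.6 and 43.3 CPM (0.95), Lipg, the endothelial lipase, at 156 and 82.7 CPM (0.91), Orm2, an acute-phase protein, at 0.73 and AW112010, an interferon-induced transcript, at 0.73. Nos2 was at 577 and 336 CPM (0.78, 0.66 to 0.90), in 149 of 335 and 114 of 391 members. In collagen-low cells Cxcl9 stood at 316 CPM in the Lcn2-ko library and 158 CPM in wt, and Nos2 at 1032 and 673 CPM.

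**Figure D5:**
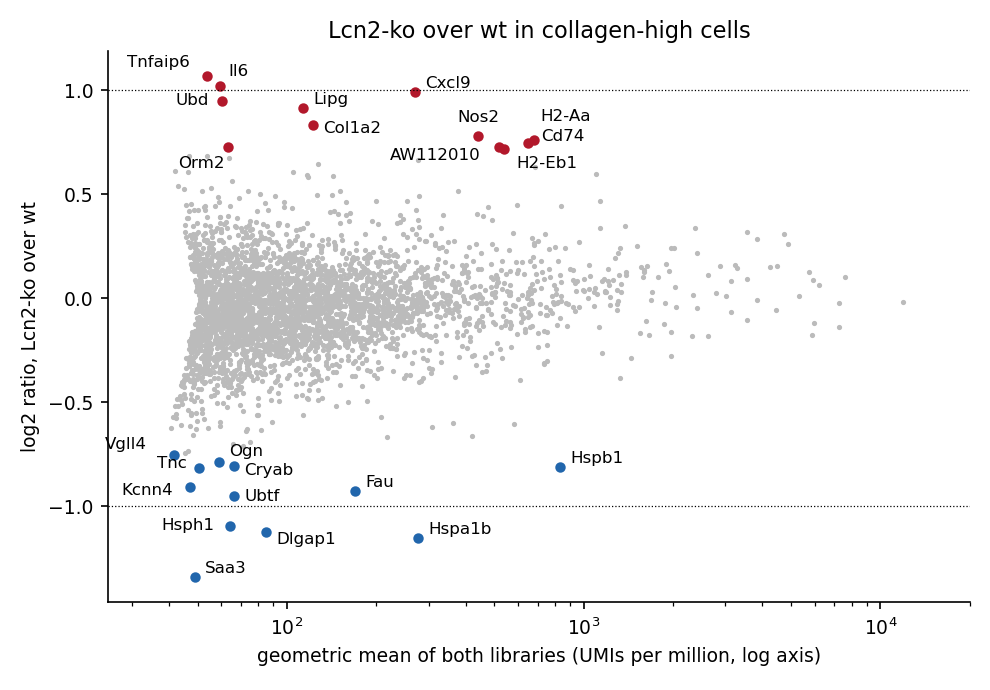
Log2 ratio of Lcn2-ko over wt collagen-high cells (y axis) against the geometric mean of both levels in CPM (x axis, log), 1 point per gene for the 3557 genes counted, with 2-fold as dotted lines. Red points are the 12 highest and blue points the 12 lowest ratios; Cxcl9, H2-Aa, Cd74 and H2-Eb1 are among the highest and Hspa1b, Hspb1 and Hsph1 among the lowest.

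On the lower side, 3 of 16 immediate-early and heat shock genes passed 1.5-fold, Hspa1a, Hspa1b and Hsph1. Hspa1b, an inducible HSP70, stood at 186 CPM in 86 of 335 Lcn2-ko members and at 414 CPM in 172 of 391 wt members (log2 -1.15, -1.31 to -0.997). Hspa1a and Hspa1b are near-identical copies whose reads may be split or lost between them. Hsph1, a co-chaperone, was at 44.0 and 94.0 CPM (-1.09), and the small heat shock proteins Hspb1 (627 and 1099 CPM) and Cryab (50.1 and 87.6 CPM) were each at -0.81. T cells differed in the same direction, at 258 CPM of Hspa1b in the Lcn2-ko library and 871 CPM in wt. Collagen-low cells differed less between the libraries than members did. The log2 ratio of members over collagen-low cells was -0.28 (Lcn2-ko) and 0.54 (wt) for Hspa1b, and -0.43 and 0.28 for Hspb1. A batch or handling difference between the libraries and genotype cannot be told apart here. Dlgap1, which encodes a scaffold protein of neuronal synapses, was at 57.4 and 125 CPM (-1.12, -1.41 to -0.84) in 63 of 335 and 110 of 391 members. Saa3, an acute-phase protein, was at 30.7 and 77.8 CPM, but 73 of its 76 Lcn2-ko UMIs and 219 of its 221 wt UMIs lay in the 8 cells; without them it stood at 1.22 and 0.708 CPM.

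The remaining lowest genes were Ubtf, a factor of ribosomal RNA transcription (-0.95), Fau, a ribosomal fusion protein (-0.93), Kcnn4, a calcium-activated potassium channel (-0.91), Tnc, the glycoprotein tenascin C (-0.82), Ogn, a small leucine-rich proteoglycan (-0.79), and Vgll4, a cofactor of TEAD factors (-0.75). Fau was at 123 and 234 CPM in members and at 290 and 578 CPM in T cells. With each cell thinned to 2000 UMIs, Tnc turned to 0.15 and Kcnn4 was at -0.15. Cryab was at -1.85 after thinning, and at -0.27 in members with the lower immune marker shares. Among matrix glycoproteins Ccn1 (471 and 716 CPM, -0.60) and Ecm1 (248 and 380 CPM, -0.62) were lower past 1.5-fold with Tnc.

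The collagen genes differed little by genotype label. Col1a1 had a log2 ratio of -0.017 (-0.039 to 0.0060), which the limit on its share keeps near 0. Col3a1 was at 0.036 (-0.036 to 0.11), Sparc at 0.013 (-0.032 to 0.058), Col6a1 at 0.15 (0.11 to 0.19) and Col6a2 at 0.16 (0.11 to 0.20). Of 7 fibrillar collagen genes Col1a2 and Col5a2 passed 1.5-fold, and none did without the 8 cells. None of the 20 hypoxia and glycolysis genes, of the 20 collagen enzymes or of the 6 network collagens passed 1.5-fold. Col4a5 was at 98.6 and 137 CPM (-0.48), the lowest of the network collagens.

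Lcn2 in these cells does not check the genotype label, since the deletion lay in the marrow. It gave 74 UMIs in 27 of 335 Lcn2-ko members (8.06%, 5.38 to 11.5%) and 57 UMIs in 25 of 391 wt members (6.39%, 4.18 to 9.29%), against 1.01% and 0.623% of T cells. The log2 ratio was 0.58 (0.058 to 1.10), with 26 of the Lcn2-ko UMIs in 1 cell, and it turned to -0.44 with each cell thinned to 2000 UMIs. Collagen-low cells held more, at 54.4 CPM in the Lcn2-ko library and 32.6 CPM in wt.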

How the data were processed

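The deposited matrices hold counts, UMIs per gene and cell barcode, not normalised, for 31253 genes. Cell Ranger and mm10 are named in the submitters' processing notes; versions and roles are not given in the sources used here. Groups follow the genotype label. UMI counts were summed over the members of each library and scaled to CPM. Ratios of sums have exact conditional binomial intervals, shares Clopper-Pearson intervals and their differences Newcombe intervals, all at 95% and for counting error only. With 1 library per label no test, p-value or standard error was formed. A sum of 0 was set to 3 UMIs in ratios. Called means 2-fold (1.5-fold for gene lists). Depth per library was 40959725 (Lcn2-ko) and 42069099 UMIs (wt), and the members' sums were 2475047 and 2841039 UMIs.

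The members, the gene lists and the tests were chosen with earlier results of these data known. Named genes are the 12 highest and 12 lowest Lcn2-ko over wt ratios (50 CPM in 1 of the libraries and 50 UMIs in all), up to 12 a side past 2-fold against collagen-low cells and 6 a side against cycling cells (at least 100 CPM), up to 4 of each list, the rule's markers, keratins, Lcn2 and sex-linked genes; genes of mitochondria, ribosomes, receptor segments and haemoglobins and gene predictions were not named. Other genes of a list were named after their values were seen, and so were the quartiles and the genes of the 8 cells.

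Doublets were scored with Scrublet in scanpy 1.11.5 at an expected rate of 0.06; the highest 4% per library were marked, kept in the members and left out in an alternative. Members were clustered on 1000 variable genes, 15 components and 15 neighbours by the Leiden method, resolution 0.5, in leidenalg 0.10.2 with igraph 0.11.9, with no batch correction. Other work used Python 3.11.15, numpy 2.4.6, scipy 1.17.1 and pandas 2.3.3. The counting of calls was tested on simulated sums with counting error only, for genes of at least 100 CPM and with ratios centred on their median. Those sums had no UMIs piled up in single cells, so the test does not cover that case. Gene positions are from the GENCODE annotation of mm10. Alternatives covered the Col1a1, keratin, gene and mitochondrial limits, doublets, scaling, means over cells, thinning to 2000 UMIs, single top cells, abundance minimums and resolution. Those added after seeing the data left out the 8 Col1a2-positive cells, or kept the cells with the lower immune marker shares. A result on 1 item is not reported here.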

Additional observations from a re-analysis of the deposited data

Results flagged for a closer look

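A few named genes went one way in 1 population or library and the other way in the other, with both counting intervals clear of 0. None of these differences was tested, since each population was sampled once per label. Hspa1b in collagen-high over collagen-low cells was at log2 -0.28 in the Lcn2-ko library and 0.54 in the wt library, and Hspb1 at -0.43 and 0.28. Tnfaip6 in the same contrast was at 0.35 in the Lcn2-ko library and -1.30 in wt, and at -1.63 and -1.40 without the 8 Col1a2-positive cells, 1 of which held 142 of its UMIs. As Lcn2-ko over wt, Tnfaip6 was at 1.07 in collagen-high cells (-0.81 without the 8 cells) and -0.58 in collagen-low cells. Saa3, at -1.34 in collagen-high and 3.27 in collagen-low cells, rested on 5 and 4 collagen-high cells, with 73 of 76 Lcn2-ko and 219 of 221 wt UMIs in the 8 cells, and on 9 and 1 UMIs in collagen-low cells. Postn was at 1.16 in collagen-high cells, all of it from the 8 Col1a2-positive cells, and at -1.90 in collagen-low cells, where the Lcn2-ko sum of 0 was taken as 3 UMIs.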

How the results depend on the processing

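The counts of genes past 2-fold are small and move with the settings. Of the values of single genes and lists under the alternatives, 3130 stayed close to the reported ones, 320 moved, some of them across 0, and 18 that were past the fold limit changed sign. With a Col1a1 limit of 0.5%, 10 genes were higher and 16 lower than in collagen-low cells. With a limit of 1.0%, 8 were higher, and 8 were higher in Lcn2-ko over wt. Asking for 20 UMIs of Krt8, Krt18 and Col1a1 left 2 genes higher than in collagen-low cells, and median ratio scaling 3. Thinning to 2000 UMIs gave 13 genes higher and 19 lower in Lcn2-ko over wt. Halving the abundance minimum gave 11 and 17 there, 8 higher than in collagen-low cells, and 151 higher and 245 lower than in cycling cells. Doubling it gave 0 and 2 in Lcn2-ko over wt, 4 lower than in collagen-low cells, and 48 and 68 against cycling cells. Leaving out the 8 cells gave 0 higher in Lcn2-ko over wt. Keeping the cells with the lower immune marker shares gave 12 and 10 there, and 3 and 4 against collagen-low cells. The cause was not tested. Members with an Xist UMI were 1.24% of Lcn2-ko members after thinning, and 1.49% (Lcn2-ko) and 0.512% (wt) when 2 UMIs were asked for. Resolutions of 0.3 and 1.0 gave 3 and 11 sub-clusters. At 1.0 the Lcn2-ko minus wt difference of the sub-cluster holding Inhba was -4.05 points, against 14.4.

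The following ratios past the limit changed sign. As Lcn2-ko over wt, the mean over cells gave Col1a2 -0.088, Col5a2 -0.063, Postn -1.05 and Bgn -0.64. Thinning gave Tnc 0.15, Kdm5d 0.78, Col5a2 -0.17 and Postn -0.95. Leaving out each gene's top cell gave Tnfaip6 -0.53, Col5a2 -1.05, Postn -2.79 and Bgn -0.16. Without the 8 cells Tnfaip6 was at -0.81. As collagen-high over collagen-low, averaged over both libraries, Has1 was at -0.020 without its top cell, and without the 8 cells Col1a2 was at -0.18, Lox at -0.031, Postn at -0.81 and Has1 at -0.97. No paired analysis was possible because each label has 1 library. At a summed depth of 2475047 and 2841039 UMIs, genes under 50 UMIs over both libraries were left out of the 2-fold counts of Lcn2-ko over wt. Levels given for such genes, Lck, Nkg7 and Csf1r among them, rest on few UMIs.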
